A study of Mus musculus with 6 samples.

Results

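The genes described here build the non-muscle cytoskeleton: the cytoplasmic actins, the chains of non-muscle myosin, the proteins that nucleate, cap, sever and bind actin filaments, the ezrin, radixin and moesin (ERM) linkers, the tubulins and their regulators, and vimentin. They were chosen by name, as the rows of the deposited expression table whose gene symbol equals a listed one. All 48 listed genes were found, each on 1 row, among 31115 genes in the table. RNA was sequenced from 6 libraries labelled as neonatal cardiomyocytes of the mouse, the heart muscle cells of newborn mice, kept in normal culture in DMEM with fetal bovine serum and collected on day 2. In 3 libraries the cells are labelled Ad-scramble, and in 3 they are labelled Ad-SPTBN1 with raised βII spectrin as the genotype. βII spectrin, encoded by Sptbn1, is a long actin-crosslinking protein of the skeleton under the cell membrane. The labels do not describe the constructs, the mouse strain, the purity of the cells, or how many cultures stand behind the libraries of a group. The p-values therefore speak only of the variation among these 6 libraries, which may be technical.

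Actin monomers join into filaments, and the pool of free monomers is buffered by thymosins and fed to growing ends by profilins. Filaments are branched by the Arp complex, elongated by formins, capped at their ends, and severed by cofilins, while bundles of non-muscle myosin pull on them. Microtubules are polymers of tubulin pairs, destabilised by stathmin and stabilised by proteins that coat their walls or bind their growing tips. Cells of the heart other than heart muscle cells, such as fibroblasts and smooth muscle cells, rely on this machinery for shape, migration and tension. Heart muscle cells use muscle isoforms of the same proteins in their sarcomeres.

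The values are FPKM, fragment numbers divided by a gene's length and a library's total, which allows levels to be compared between genes. Reads recovered from these values summed to between 18775304 and 19638662 per library in genes, and a member rested on 374 to 62578 reads per library. In every library the sum was above the fitted total by which the values were scaled, 18223041 to 19062984. The cause of that excess was not tested. Differences were tested with limma on log2(FPKM + 1) over the 12608 genes whose mean reached 1 FPKM, and a gene is called where its Benjamini-Hochberg adjusted p is below 0.05. All 48 members passed that minimum in both groups. Sptbn1 went against the label: it measured 50.8, 48.3 and 50.1 FPKM under the Ad-scramble label, against 16.1, 16.5 and 15.7 FPKM under the Ad-SPTBN1 label (limma adjusted p = 2.72e-06). The 2 groups do not overlap, and directions below are those of the libraries labelled Ad-SPTBN1 relative to the libraries labelled Ad-scramble, not those of a gain of spectrin. An exchange of labels or columns and a construct that lowers Sptbn1 cannot be told apart from these files, and under an exchange every direction given here would turn. The labelled cell type was checked against its markers. The summed level of 12 cardiomyocyte markers was 71.9 to 76.1 FPKM under the Ad-scramble label, against 113.8 to 120.4 FPKM under the Ad-SPTBN1 label. Of 11 fibroblast markers, 7 were called lower and 0 higher, with a median log2 difference of -0.16. Their summed level was nonetheless 4189 to 4510 and 4422 to 4650 FPKM, since Col1a1, a collagen chain that was not called (adjusted p = 0.056), makes up a large part of it with 2078 ± 152.0 and 2402 ± 103.4 FPKM (SD, n = 3). The summed level of 10 smooth muscle and pericyte markers was 1884 to 1906 and 1833 to 1861 FPKM. No marker of these lists was at 0 in any library, but only 8 of the 12 cardiomyocyte markers reached the mean of 1 FPKM. In every library the cardiomyocyte markers summed far below the fibroblast markers and below the smooth muscle and pericyte markers. Col1a1 ranked 3 and the smooth muscle actin Acta2 ranked 8 in the whole table. Actc1, the most abundant cardiomyocyte marker, ranked 1420. The cultures were measured as a whole, so fewer cells of a type and less RNA per cell cannot be told apart.

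Of the 48 members, 10 were called, 8 lower and 2 higher in the libraries labelled Ad-SPTBN1. Over all tested genes 11.0% were called, 5.5% lower and 5.54% higher, while 16.7% of the members were called lower and 4.17% higher. These shares were not tested against each other, and the members were chosen with earlier results of these data known. The genes called lower are the thymosins Tmsb4x and Tmsb10, the myosin chains Myl12b, Myh10 and Myl9, the filament-binding proteins Cnn2 and Tpm4, and the microtubule destabiliser Stmn1. Those called higher are moesin, Msn, and the tubulin Tubb2b. Markers of other cells moved in both directions: 7 of 11 fibroblast, 8 of 16 cycling cell and 4 of 10 smooth muscle and pericyte markers were called lower, while 6 of 8 tested cardiomyocyte and 5 of 8 epicardial and mesothelial markers were called higher. The summed level of the epicardial and mesothelial markers was 110.4 to 114.3 FPKM under the Ad-scramble label and 137.7 to 139.0 FPKM under the other. The part of these shifts in the members' differences was not tested. The differences were small: 4 members, Tmsb4x, Myl12b, Stmn1 and Myh10, differed 1.2-fold or more, taken from log2(FPKM + 1). The median log2 difference was 0.00 over the members and 0.00 over all tested genes. With any 1 library left out, 5 to 6 members were called lower and 1 to 2 higher, and across all tested genes 320 to 438 were called lower, against 693 with all libraries, and 302 to 441 higher, against 698. Leaving out any library but Ad-SPTBN1 replicate 2 gave the count of 5.

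**Figure D1:**
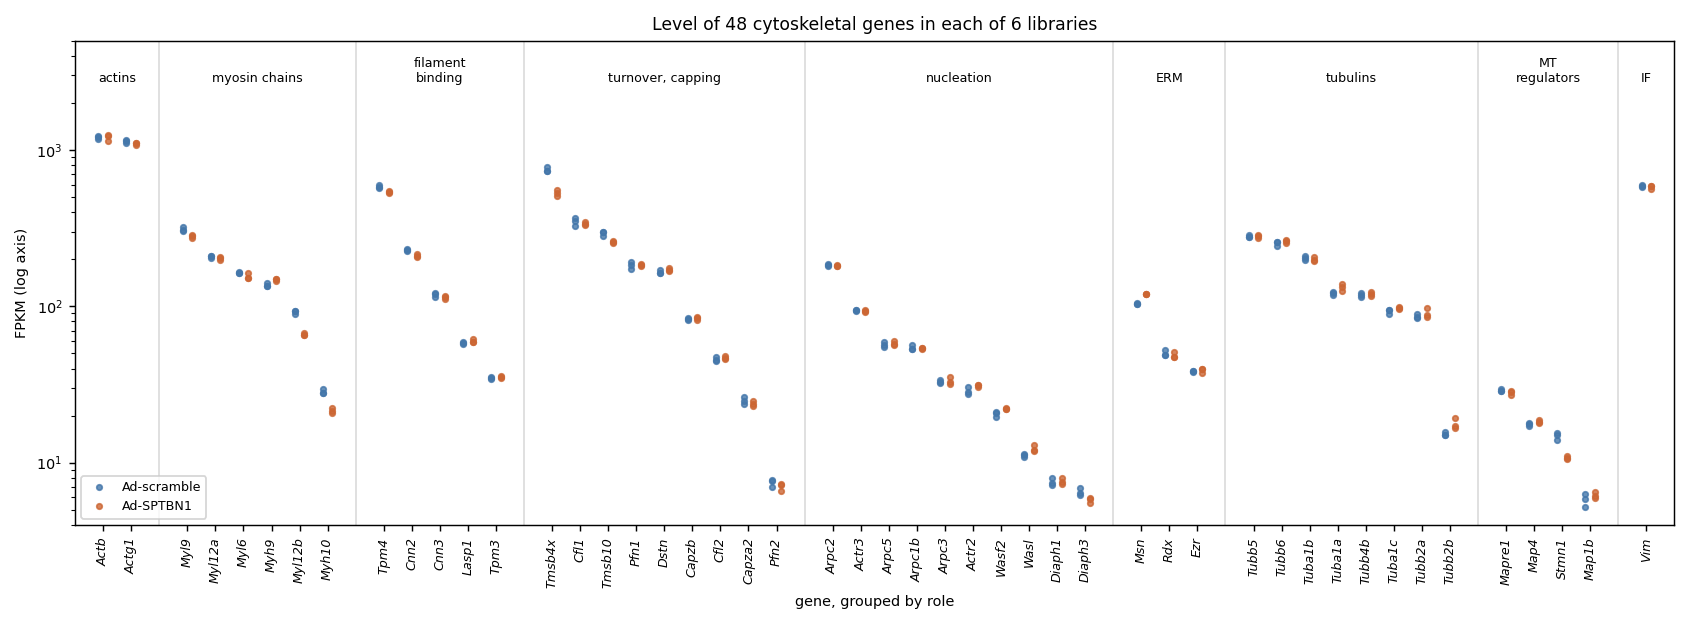
FPKM of the 48 genes on a log axis, grouped by role, with 1 point per library (3 Ad-scramble, 3 Ad-SPTBN1). Actb and Actg1 stand highest, with means of 1208 and 1114 FPKM, and the points of the 2 groups lie close together for most genes.

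Levels ranged over more than 2 orders of magnitude. Actb, with a mean of 1208 FPKM over the 6 libraries, was the gene of rank 12 in the whole table and Actg1, with 1114 FPKM, of rank 17. Tmsb4x (641 FPKM), Vim (584 FPKM) and Tpm4 (559 FPKM) followed, and these 5 members are among the 50 most abundant genes of the table. In all, 22 members had a mean above 100 FPKM and 4, Pfn2, Diaph1, Diaph3 and Map1b, one below 10 FPKM. The 48 members together held 2.98% to 3.14% of the summed FPKM of a library.

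The sequence upstream of a gene that responds to actin itself often holds a CArG box, the site bound by the transcription factor SRF, whose cofactors are released when free actin monomers are used up. Promoter windows from 250 bases before to 50 bases after the start were taken from RefSeq (GRCm38.p6). Of the 48 members, 43 had at least 1 window in the search, giving 49 windows. Actb, Stmn1 and Tubb2b had no RefSeq window, so whether they hold a CArG box was not examined. Windows of Diaph1 and Tubb6 were left out of the member set, while the windows of all genes were not cut in this way. The percentages for members and for all genes therefore come from sets chosen differently. On either strand, the CArG box was found in 4 of the 49 windows (8.16%), against 1.63% of 32851 windows of that length from all genes. The 4 belong to Actg1, Myl6, Myl9 and Cnn2, and are shown because the pair Myl9 and Cnn2 was called lower and the pair Actg1 and Myl6 was not. The log2 differences of all 4 were below 0: -0.147 in Myl9, -0.122 in Cnn2, -0.069 in Myl6 and -0.055 in Actg1. The median over all 48 members was 0.002, and a link between the box and the sign was not tested. The calls on Myl9 and Cnn2 were lost in many of the alternative settings. Capitals mark the CArG box, and each window is read on the gene's own strand. None of the 4 windows holds TATAAA, and Myl6 has a further window without the box. The Myl6 window shown lies inside the annotated gene, which runs from 128490860 to 128494145, and so belongs to an internal start.
Actg1, chr11:120348446-120348745, minus strand: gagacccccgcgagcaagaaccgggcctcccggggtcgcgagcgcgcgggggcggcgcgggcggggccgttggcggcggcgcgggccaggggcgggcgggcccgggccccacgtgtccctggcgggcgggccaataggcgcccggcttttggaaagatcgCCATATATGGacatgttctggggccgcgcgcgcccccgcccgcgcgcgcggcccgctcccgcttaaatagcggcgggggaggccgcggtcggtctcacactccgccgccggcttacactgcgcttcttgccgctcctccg
Myl6, chr10:128492960-128493259, minus strand: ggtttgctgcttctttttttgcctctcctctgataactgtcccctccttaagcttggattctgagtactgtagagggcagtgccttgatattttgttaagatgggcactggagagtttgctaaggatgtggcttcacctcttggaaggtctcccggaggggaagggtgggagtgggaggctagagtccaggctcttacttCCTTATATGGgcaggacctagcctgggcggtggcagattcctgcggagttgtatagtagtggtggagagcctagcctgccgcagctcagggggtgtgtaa
Myl9, chr2:156775214-156775513, plus strand: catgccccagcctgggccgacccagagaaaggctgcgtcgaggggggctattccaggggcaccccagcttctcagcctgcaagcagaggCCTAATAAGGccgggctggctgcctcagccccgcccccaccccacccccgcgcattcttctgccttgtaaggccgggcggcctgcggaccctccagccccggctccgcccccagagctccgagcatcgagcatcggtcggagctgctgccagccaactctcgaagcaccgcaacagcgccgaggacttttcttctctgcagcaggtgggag
Cnn2, chr10:79988350-79988649, plus strand: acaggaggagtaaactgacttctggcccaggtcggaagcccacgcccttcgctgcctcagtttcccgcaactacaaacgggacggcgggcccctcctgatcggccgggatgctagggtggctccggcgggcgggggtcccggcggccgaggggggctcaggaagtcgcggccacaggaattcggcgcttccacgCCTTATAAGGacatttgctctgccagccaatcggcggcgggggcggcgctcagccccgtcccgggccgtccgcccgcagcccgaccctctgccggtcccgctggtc

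The CArG box begins 161 bases before the start in Myl9, 90 in Actg1, 56 in Cnn2 and 50 in Myl6. The window of Tmsb4x, the member with the largest difference, holds no CArG box by these letters. It is shown for that reason, with capitals at its GGGCGG match.
Tmsb4x, chrX:167209169-167209468, minus strand: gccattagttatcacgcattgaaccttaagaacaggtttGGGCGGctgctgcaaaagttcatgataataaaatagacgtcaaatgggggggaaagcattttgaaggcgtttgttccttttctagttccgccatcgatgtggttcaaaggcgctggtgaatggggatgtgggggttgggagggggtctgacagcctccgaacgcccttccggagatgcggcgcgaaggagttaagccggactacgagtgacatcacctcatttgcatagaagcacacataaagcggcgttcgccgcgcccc
Of the other words searched on both strands, GGGCGG was in 83.7% of member windows and 35.7% of all windows, CCAAT in 42.9% and 37.4%, TATAAA in 12.2% and 13.6%, TTTGAA in 12.2% and 17.9%, and GGAATG in 10.2% and 14.7%. These are matches of letters in a window and say nothing of binding.

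The cytoplasmic actins were not called. Actb, the β-actin gene, measured 1233, 1216 and 1169 FPKM under the Ad-scramble label, against 1146, 1230 and 1252 FPKM under the Ad-SPTBN1 label. The ranges of the 2 groups overlap, and the 95% interval of the log2 difference ran from -0.09 to 0.10. Actg1, the γ-actin gene, measured 1148, 1107 and 1151 FPKM and then 1105, 1072 and 1102 FPKM. Its highest library labelled Ad-SPTBN1 lies just under its lowest labelled Ad-scramble, and it did not pass (log2 difference -0.055 ± 0.027, SE, 3 libraries a group, limma adjusted p = 0.243). Of 50-base words, 37.4% in Actg1 and 9.1% in Actb also occur in other annotated genes, and how the authors counted reads shared between genes is not given in the sources used here.

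Among the 6 actin genes of the mouse, the cytoplasmic pair and the smooth muscle isoform Acta2 made up nearly all of the level. Actb held 28.2% to 30.3% of the summed actin FPKM, Actg1 26.1% to 27.9% and Acta2 38.4% to 39.7%. Cardiac Actc1 held 0.506% to 0.522% in the libraries labelled Ad-scramble and 1.09% to 1.19% in those labelled Ad-SPTBN1. The ratio of both cytoplasmic actins to the 4 muscle actins was 1.31 ± 0.03 and 1.28 ± 0.04 (SD, n = 3), with overlapping groups. The ratios here and below are given as values, and none was tested.

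The chains of non-muscle myosin differed in their calls. Non-muscle myosin is a hexamer of a pair of heavy chains, here from Myh9 (isoform IIA) or Myh10 (isoform IIB), with essential light chains from Myl6 and regulatory light chains from Myl9, Myl12a and Myl12b, whose phosphorylation switches the motor on. Of the 6 chains 3 were called lower and 0 higher.

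Myh10 (ENSMUSG00000020900, GRCm38 chromosome 11, 68691559 to 68816632, plus strand) measured 27.8, 28.0 and 29.4 FPKM under the Ad-scramble label, against 20.7, 21.5 and 22.2 FPKM under the Ad-SPTBN1 label. All 3 libraries labelled Ad-SPTBN1 lie below all 3 labelled Ad-scramble, at 75.7% of their mean (log2 difference -0.39 ± 0.04, SE, 3 libraries a group, limma adjusted p = 0.00226). Myh9, its paralog and the more abundant heavy chain, measured 135.3, 134.9 and 141.7 FPKM and then 144.3, 148.7 and 149.4 FPKM. The groups of Myh9 do not overlap either, in the opposite direction, but the gene was not called (log2 difference 0.10 ± 0.03, limma adjusted p = 0.0697), and it passed with voom on the recovered reads (adjusted p = 0.0037). The ratio of Myh10 to Myh9 was 0.207 ± 0.001 in the libraries labelled Ad-scramble and 0.146 ± 0.003 in those labelled Ad-SPTBN1 (SD, n = 3), with no overlap. Only 0.7% of the 50-base words of each gene occur elsewhere.

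Myl12b (ENSMUSG00000034868, GRCm38 chromosome 17, 70973920 to 70990787, minus strand) showed the largest difference among the myosin chains. It measured 89.2, 93.7 and 94.0 FPKM under the Ad-scramble label, against 65.7, 67.6 and 65.2 FPKM under the Ad-SPTBN1 label. The groups lie well apart, with the second at 71.7% of the first (log2 difference -0.47 ± 0.03, SE, 3 libraries a group, limma adjusted p = 0.000527). Its paralog Myl12a lies 2868 bases away on the same strand, at 70993656 to 71002878, and measured 204.9, 209.8 and 211.3 FPKM and then 199.0, 204.9 and 206.1 FPKM. Those groups overlap, and Myl12a was not called (adjusted p = 0.409; 95% interval of the log2 difference -0.10 to 0.02). The ratio of Myl12b to Myl12a went from 0.442 ± 0.006 to 0.325 ± 0.008 (SD, n = 3). Of 50-base words 25.4% in Myl12b and 21.1% in Myl12a occur in other annotated genes, and 26.7% and 13.8% of their exon bases are also annotated to another gene on the same strand, so their reads may be split with other annotated entries and the values are uncertain.

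Myl9, the regulatory light chain also used by smooth muscle, measured 301.3, 322.3 and 309.8 FPKM under the Ad-scramble label, against 273.3, 286.8 and 282.6 FPKM under the Ad-SPTBN1 label. The groups do not overlap, and the log2 difference was -0.15 ± 0.03 (SE, 3 libraries a group, limma adjusted p = 0.0324). That call was lost on dropping any 1 of the 6 libraries (adjusted p between 0.0505 and 0.0943) and with quantile normalization (0.0864). Myl6, whose gene also yields a smooth muscle form, measured 163.7 ± 1.62 and 156.1 ± 7.14 FPKM (SD, n = 3) and was not called (adjusted p = 0.262).

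**Figure D2:**
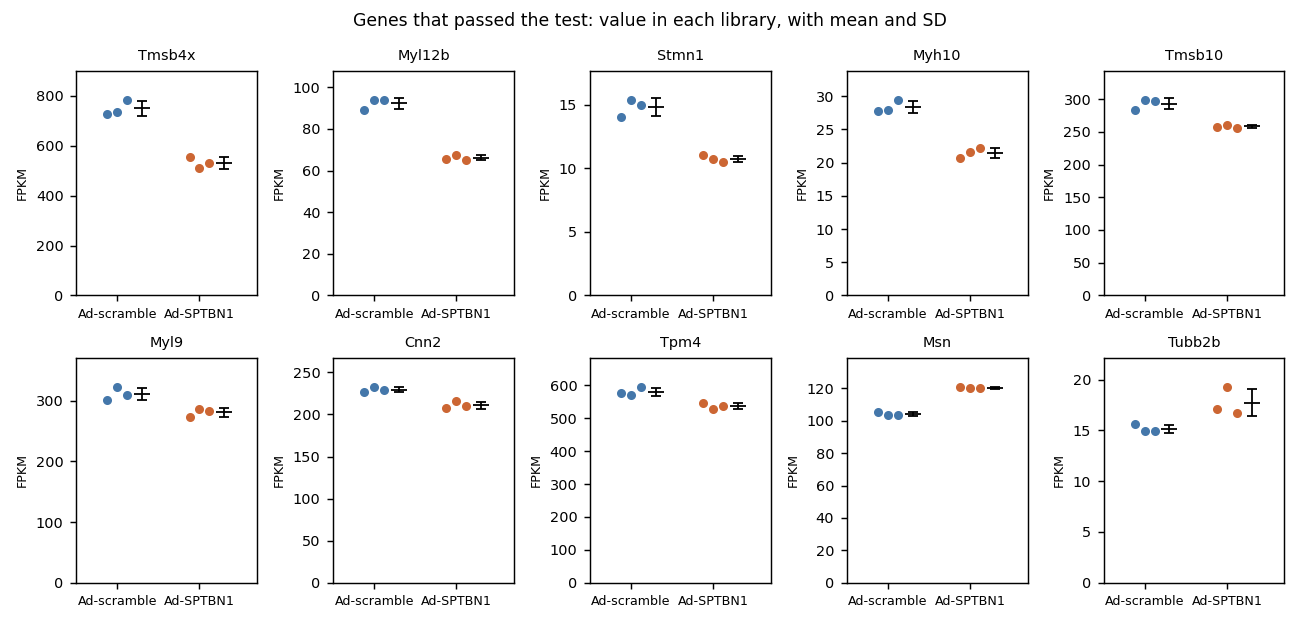
FPKM in each library for the 10 genes that passed the test, with the mean and SD of each group (3 libraries each) beside the points and axes that start at 0. In every panel the 2 groups are apart, and the distance is largest relative to the level in Tmsb4x, Myl12b, Stmn1 and Myh10.

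Of the proteins that lie along actin filaments, 2 of 5 were called lower and 0 higher. Cnn2, a calponin that stabilises filaments in non-muscle cells, measured 226.4, 232.3 and 229.6 FPKM under the Ad-scramble label, against 207.4, 215.4 and 209.5 FPKM under the Ad-SPTBN1 label. Its groups do not overlap (log2 difference -0.12 ± 0.03, SE, 3 libraries a group, limma adjusted p = 0.0254). Tpm4, the most abundant of this group and a tropomyosin of stress fibres, measured 575.7, 571.7 and 594.0 FPKM and then 547.7, 529.4 and 536.7 FPKM. Its groups do not overlap (log2 difference -0.11 ± 0.03, limma adjusted p = 0.0396). The call on Tpm4 was lost on dropping any 1 of the 6 libraries (adjusted p between 0.0597 and 0.131), and that on Cnn2 without any but Ad-SPTBN1 replicate 2 (0.0626 to 0.0881). Under quantile normalization the log2 difference of Tpm4 was -0.06 (adjusted p = 0.339). The tropomyosin Tpm3, the calponin Cnn3 and Lasp1, a LIM protein of focal adhesions and cortical actin, had log2 differences of 0.02, -0.06 and 0.04 and were not called. The table gives 1 value per gene, so the muscle and non-muscle transcripts of Tpm3 are not separated.

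The actin turnover and capping genes held the largest difference of all 48 members. Thymosins bind actin monomers and hold them out of filaments, and both were called lower. Tmsb4x (ENSMUSG00000049775, GRCm38 chromosome X, 167207093 to 167209315, minus strand) measured 728.5, 737.6 and 784.1 FPKM under the Ad-scramble label, against 555.0, 509.6 and 530.6 FPKM under the Ad-SPTBN1 label. The highest library of the second group lies far below the lowest of the first, and the mean was at 70.9% (log2 difference -0.50 ± 0.04, SE, 3 libraries a group, limma adjusted p = 0.00106, from 13214 to 19914 reads per library). No 50-base word of Tmsb4x occurs in another annotated gene. Tmsb10 measured 283.3, 298.6 and 297.2 FPKM and then 257.6, 261.1 and 255.5 FPKM. Its groups do not overlap, at 88.1% of the mean (log2 difference -0.18 ± 0.03, limma adjusted p = 0.00944), and 27.0% of its 50-base words occur elsewhere.

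The summed thymosin level, set against the cytoplasmic actins and leaving the muscle actins aside, was lower. It was 0.446 ± 0.021 of the summed cytoplasmic actin level in the libraries labelled Ad-scramble and 0.343 ± 0.015 in those labelled Ad-SPTBN1 (SD, n = 3), with no overlap. The ratio of Tmsb4x to Tmsb10 was 2.56 ± 0.08 and 2.06 ± 0.10, also with no overlap. For the profilins, which hand monomers to growing filaments, the same ratio to actin was 0.0816 ± 0.0043 and 0.0829 ± 0.0023. For the severing proteins Cfl1, Cfl2 and Dstn together it was 0.240 ± 0.007 and 0.242 ± 0.004. The groups of both of these overlap.

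None of the other 7 turnover and capping genes was called. Cfl1, the non-muscle cofilin and the most abundant of them, measured 353.5, 366.6 and 326.2 FPKM under the Ad-scramble label, against 333.3, 347.9 and 335.7 FPKM under the Ad-SPTBN1 label. The groups overlap, as do those of Cfl2, Dstn, Pfn1, Pfn2 and the capping protein subunits Capzb and Capza2. Their log2 differences lay between -0.07 and 0.045.

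The 10 actin nucleation genes had 0 calls, against 11.0% of all tested genes, and 4 of the 10 had an unadjusted limma p under 0.05. They comprise subunits of the Arp complex, which starts a new branch on the side of a filament, its activators Wasl and Wasf2, and the formins Diaph1 and Diaph3, which elongate unbranched filaments. Arpc2, the most abundant, measured 183.3, 185.7 and 180.6 FPKM under the Ad-scramble label, against 183.2, 181.0 and 181.2 FPKM under the Ad-SPTBN1 label. These values overlap, and the 95% interval of the log2 difference was -0.07 to 0.04. The other core subunits Arpc1b, Arpc3, Arpc5 and Actr3 had log2 differences of -0.02 to 0.02, and Actr2 of 0.11 (adjusted p = 0.165). Wasl measured 11.4, 11.2 and 10.8 FPKM and then 12.0, 11.8 and 13.1 FPKM. Wasf2 measured 21.0, 20.8 and 19.5 FPKM and then 21.9, 22.4 and 22.0 FPKM. For both activators the groups do not overlap, with log2 differences of 0.13 and 0.11 that did not pass (limma adjusted p = 0.123 and 0.117). Diaph3 was at the other end, with a log2 difference of -0.15 and no overlap (adjusted p = 0.115), and Diaph1 had one of 0.01.

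The ERM proteins tie actin filaments to the cell membrane, and 1 of 3 was called higher. Msn, moesin (ENSMUSG00000031207, GRCm38 chromosome X, 96096042 to 96168552, plus strand), measured 105.5, 103.7 and 103.5 FPKM under the Ad-scramble label, against 120.6, 119.9 and 120.0 FPKM under the Ad-SPTBN1 label. The libraries of each group lie within 2 FPKM of each other and the groups are apart (log2 difference 0.20 ± 0.02, SE, 3 libraries a group, limma adjusted p = 0.00321). Ezrin, Ezr, measured 38.3 ± 0.495 and 39.0 ± 1.23 FPKM and radixin, Rdx, 50.1 ± 2.34 and 48.3 ± 2.02 FPKM (SD, n = 3); neither was called. The ratio of Msn to the sum of Ezr and Rdx was 1.18 ± 0.04 and 1.38 ± 0.05, with no overlap.

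**Figure D3:**
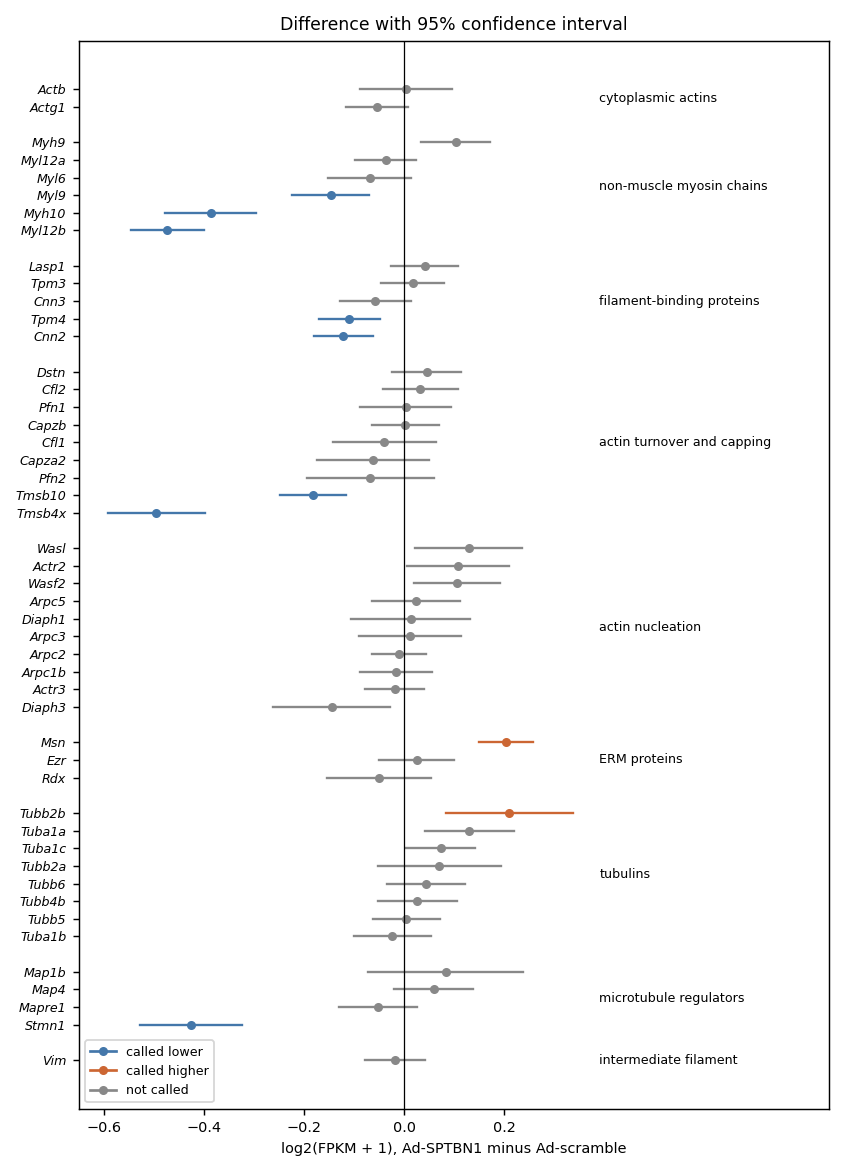
Difference of log2(FPKM + 1), Ad-SPTBN1 minus Ad-scramble, with its 95% confidence interval from limma, for the 48 genes ordered by role. The 8 genes called lower lie left of 0 and the 2 called higher right of it, and 33 of the 38 intervals of the other genes lie within 0.2 of 0.

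Of 8 tubulins 1 was called higher and 0 lower. Tubb2b, a β-tubulin, measured 15.6, 14.9 and 14.9 FPKM under the Ad-scramble label, against 17.2, 19.2 and 16.8 FPKM under the Ad-SPTBN1 label. Its groups do not overlap, but the call is at the threshold (log2 difference 0.21 ± 0.05, SE, 3 libraries a group, limma adjusted p = 0.0495) and was lost on dropping any 1 of the 6 libraries (adjusted p between 0.0614 and 0.12). It was also lost with median-of-ratios scaling (0.0518) and quantile normalization (0.0608). The ratio of Tubb2b to its neighbour in sequence, Tubb2a, was 0.177 ± 0.007 and 0.197 ± 0.021 (SD, n = 3), with overlapping groups.

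Tubb5, the most abundant tubulin here, measured 279.5, 284.5 and 276.4 FPKM and then 282.8, 287.9 and 272.2 FPKM. Its groups overlap, and the 95% interval of the log2 difference was -0.06 to 0.07. Tuba1a, an α-tubulin, measured 123.1, 121.6 and 118.3 FPKM and then 138.5, 133.3 and 126.1 FPKM. The groups of Tuba1a do not overlap, and it was not called (adjusted p = 0.0728), though it was without Ad-SPTBN1 replicate 3 (0.0485), with quantile normalization (0.0446) and with voom on the recovered reads (0.0144). Tuba1b, Tuba1c, Tubb2a, Tubb4b and Tubb6 had log2 differences of -0.02 to 0.07 and were not called. The α-tubulin genes are near-identical in their coding parts: 75.5% of the 50-base words of Tuba1a, 75.1% of Tuba1b and 52.7% of Tuba1c occur in other genes, as do 36.9% of Tubb2b and 49.6% of Tubb2a, so the split of reads among them is uncertain. Tubb5 and Tubb6 share 0.1% or less.

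Of 4 microtubule regulators 1 was called lower and 0 higher. Stmn1, stathmin, which binds tubulin pairs and promotes the shrinking of microtubules (ENSMUSG00000028832, GRCm38 chromosome 4, 134468320 to 134473843, plus strand), measured 14.0, 15.4 and 15.0 FPKM under the Ad-scramble label, against 11.0, 10.7 and 10.5 FPKM under the Ad-SPTBN1 label. The groups lie apart, with the second at 72.7% of the first (log2 difference -0.43 ± 0.04, SE, 3 libraries a group, limma adjusted p = 0.00228). Stmn1 rests on 374 to 539 reads per library, the fewest of any member, and 18.9% of its 50-base words occur in other genes. Relative to the 8 tubulins summed, its level was 0.0127 ± 0.0006 and 0.00896 ± 0.00006 (SD, n = 3). Stmn1 is also known as a gene of dividing cells, and markers of cycling cells moved with it: 8 of 16 were called lower and 0 higher, and their summed level was 203.4 to 208.6 FPKM under the Ad-scramble label, against 175.5 to 179.6 FPKM under the Ad-SPTBN1 label. Their part in the difference of Stmn1 was not tested. The end-binding protein Mapre1, the most abundant of the 4, measured 29.1 ± 0.548 and 28.1 ± 0.798 FPKM, and it, Map4 and Map1b, which coat microtubules, were not called.

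Vim, vimentin, the intermediate filament protein of mesenchymal cells, measured 580.0, 595.9 and 586.3 FPKM under the Ad-scramble label, against 566.5, 584.7 and 589.4 FPKM under the Ad-SPTBN1 label. The ranges overlap, and the 95% interval of the log2 difference was -0.08 to 0.04 (adjusted p = 0.71).

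**Figure D4:**
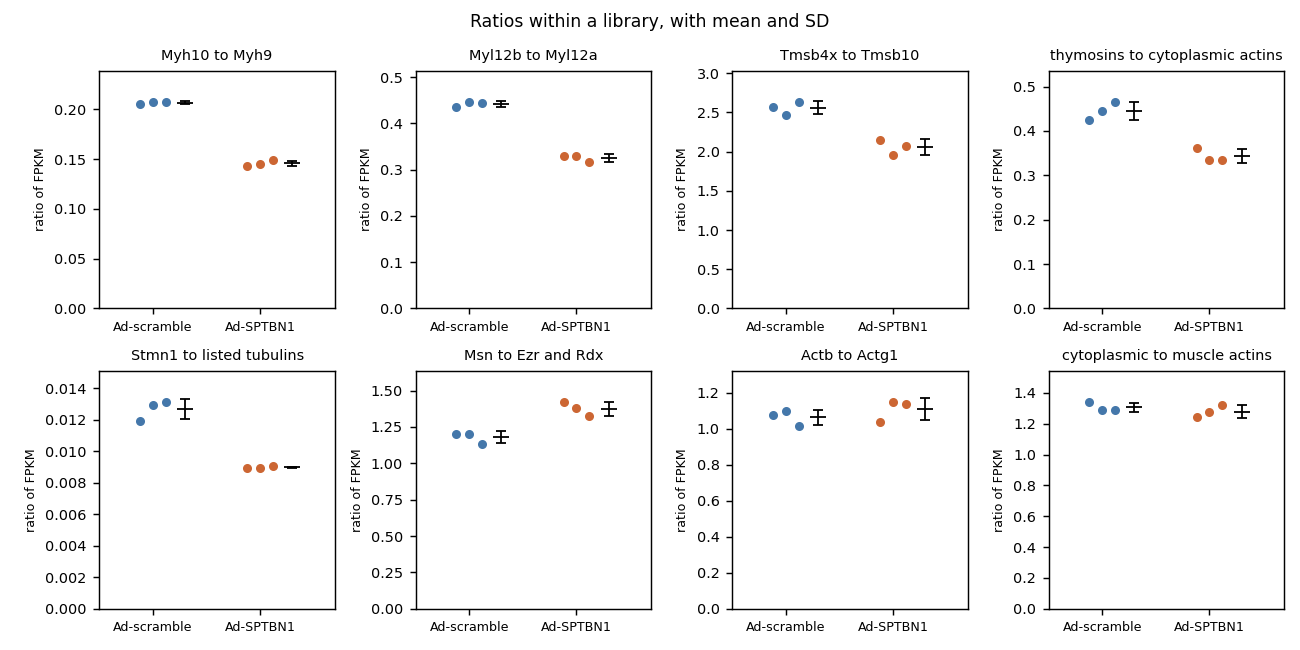
Ratios of summed FPKM within each library, which do not depend on how libraries were scaled, with the mean and SD of each group (3 libraries each) and axes that start at 0. The groups are apart for Myh10 to Myh9, Myl12b to Myl12a, Tmsb4x to Tmsb10, thymosins to cytoplasmic actins, Stmn1 to the 8 tubulins and Msn to Ezr and Rdx, and they overlap for Actb to Actg1 and for cytoplasmic to muscle actins.

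Among the 38 members that were not called, the log2 differences lay between -0.15 and 0.13, and for 33 of them the 95% interval lay within 0.2 of 0 on either side. The widest reach was in Diaph3, down to -0.26, and in Map1b, up to 0.24. Over all 48 members the groups did not overlap in 10 genes that were lower and 9 that were higher, against 15.8% and 16.5% of all tested genes (32.3% in either direction).

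Other genes of the same systems were counted from 7 lists that hold none of the members. Of their 162 tested genes 20 were called, 8 higher (4.94%) and 12 lower (7.41%), beside 5.54% and 5.5% of all tested genes. With any 1 library left out, 5 to 6 were called higher and 4 to 9 lower. The higher count moved by over 1.5 times on dropping any library except replicate 1 of Ad-SPTBN1, and the lower count on dropping any except replicate 2 of Ad-scramble. Of the calls, 9 of the 20 held in all 17 alternative settings. The counts for single lists below were not tested against the 11.0% called over all tested genes. In the list of other actin nucleation genes, 3 of 25 were called higher and 2 lower. Arpc1a, the paralog of the member Arpc1b in the Arp complex, rose from 19.4 ± 0.814 to 24.8 ± 1.36 FPKM (SD, n = 3, limma adjusted p = 0.00762), and its ratio to Arpc1b was 0.356 ± 0.021 and 0.460 ± 0.026 with no overlap. Wipf1, which binds and stabilises the activators of the complex, fell by 0.28 on the log2 scale, the formin Inf2 rose by 0.21, and the subunit Arpc4 fell by 0.12. The call on Arpc4 was lost without any 1 library (adjusted p from 0.0702 to 0.113), that on Inf2 without any but Ad-SPTBN1 replicate 1 (0.0741 to 0.0984), and that on Wipf1 on dropping replicate 1 of Ad-scramble (0.0534) or replicate 3 of Ad-SPTBN1 (0.0515).

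In the list of other turnover and capping genes, 1 of 24 was called higher and 4 lower. The severing protein Gsn fell from a mean of 84.3 to one of 75.5 FPKM (n = 3 libraries each, limma adjusted p = 0.00949). Svil fell by 0.21 and the monomer-recycling protein Cap1 by 0.15 on the log2 scale, and Wdr1, a helper of cofilin, rose by 0.12. The call on Wdr1 was lost without any 1 library (adjusted p from 0.0586 to 0.0969), that on Svil without replicates 1 and 3 of either group (0.0668 to 0.0827), and that on Cap1 on dropping replicate 1 or 3 of Ad-scramble or replicate 2 or 3 of Ad-SPTBN1 (0.0691 to 0.0898). Gsn is also on the list of fibroblast markers, of which 7 of 11 were called lower and 0 higher; their part in its difference was not tested.

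Among crosslinkers and bundlers, 2 of 19 were called higher and 3 lower. Flnc, which joins actin filaments into networks and is known mainly from muscle, rose from 21.6 ± 0.242 to 25.7 ± 0.480 FPKM (SD, n = 3, limma adjusted p = 0.00441). Anln, the anillin of the dividing cell's contractile ring, fell by 0.29 and the bundling protein Pls3 by 0.16 on the log2 scale. The call on Pls3 was lost without Ad-scramble replicate 1 or any library labelled Ad-SPTBN1 (adjusted p from 0.0529 to 0.0646).

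Among the genes of these lists that act upstream of myosin and of filament assembly, Arhgdia measured 157.0, 162.3 and 154.4 FPKM under the Ad-scramble label, against 234.3, 236.8 and 230.0 FPKM under the Ad-SPTBN1 label. The groups are far apart, and its log2 difference of 0.56 ± 0.03 (SE, 3 libraries a group, limma adjusted p = 0.000167) was larger in size than that of any of the 48 members. Mylk, the kinase that phosphorylates the regulatory light chains, fell from 11.2 ± 0.439 to 8.72 ± 0.116 FPKM (adjusted p = 0.00401). The kinase Pak1 rose by 0.33 on the log2 scale. Mylk is also a smooth muscle marker, and 4 of the 10 smooth muscle and pericyte markers were called lower and 1 higher.

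Of 25 other tubulins and tubulin-folding genes 0 were called and 3 had an unadjusted limma p under 0.05; Cct8, a subunit of the chaperonin that folds actin and tubulin, had a mean of 113.9 FPKM and a 95% interval of the log2 difference of -0.03 to 0.08. Of 34 other microtubule proteins and motors, 1 was called lower, the dynein light chain Dynll2, from 38.6 ± 1.42 to 32.4 ± 0.314 FPKM (limma adjusted p = 0.00623). Of 11 tested genes for SRF and its actin-sensing cofactors 0 were called by limma and 0 had an unadjusted p under 0.05. Srf itself had a 95% interval of -0.06 to 0.08 on the log2 scale.

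Of 13 tested muscle isoforms of the members, 4 were called higher and 1 lower. Cardiac Actc1 measured 21.6, 21.5 and 20.9 FPKM under the Ad-scramble label, against 44.8, 48.9 and 45.1 FPKM under the Ad-SPTBN1 label, a log2 difference of 1.08 ± 0.04 (SE, 3 libraries a group, limma adjusted p = 4.39e-05). The heavy chain Myh6 and the light chain Myl2 of heart muscle rose by 0.93 and 0.65 on the log2 scale. The tropomyosin Tpm2 fell by 0.13 on that scale, and its 1 value does not separate the transcripts of the gene. The call on Tpm2 was lost without any library labelled Ad-SPTBN1 (adjusted p from 0.0578 to 0.0683). Of Myh6, 20.2% of the 50-base words occur in other genes. Of the cardiomyocyte markers, 6 of 8 tested were called higher and 0 lower. Actc1, Myh6 and Myl2 are on both of these lists, so the counts are not independent. The part of the cardiomyocyte marker shift in the differences of the non-muscle genes was not tested.

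**Figure D5:**
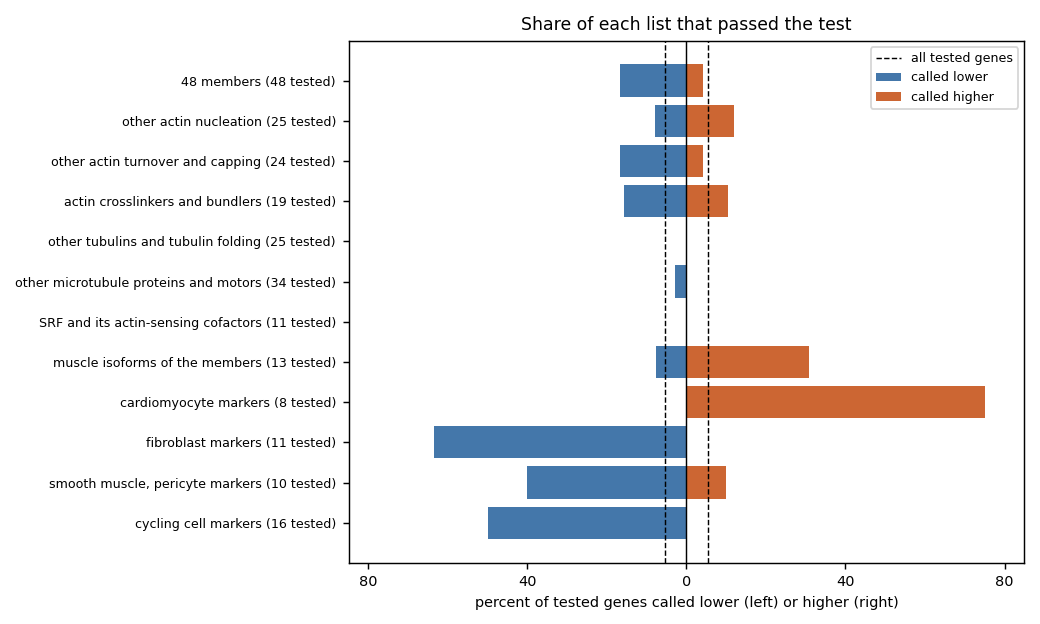
Percent of the tested genes of each list shown called lower (left bars) or higher (right bars) by limma, with the number tested in brackets and the percent over all 12608 tested genes as dashed lines. The 48 members reach 16.7% lower and 4.17% higher, the lists of other tubulins and of SRF cofactors have no bar, and the markers of fibroblasts and cycling cells lie left while those of cardiomyocytes lie right.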

How the data were processed

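The authors deposited 1 table of FPKM values with 1 column per library; the genome build GRCm38 (mm10) is given per the submitters' processing notes, while no source used here gives the aligner, counter, annotation or use of strand. Columns were matched to libraries through the sample number in the labels. The FPKM values were used as deposited, as log2(FPKM + 1), and tested with limma 3.58.1 (R 4.3.3; prior variance fitted as a trend on level). Adjusted p-values follow Benjamini and Hochberg across the 12608 genes whose mean reached 1 FPKM. Fold changes on this scale understate those of low genes. Reads were recovered with GENCODE M21 exon lengths, and 95.6% to 95.7% of the values above 0 were whole within 0.1 read. Within groups, the chi-square per gene between libraries was 2.74 to 4.09, so no pair agreed within counting noise. Shared sequence was counted as 50-base words of GENCODE transcripts. Some items of the other lists are not reported here. The members and lists were chosen with earlier results of these data known. Any member may be named, and of each other list up to 4 called genes with the smallest adjusted p, or the most abundant gene where none was called.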

Additional observations from a re-analysis of the deposited data

How the results depend on the processing

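Of the 10 called members, 6 (Tmsb4x, Myl12b, Stmn1, Myh10, Tmsb10 and Msn) kept their call in all 17 alternatives and Myl9, Tpm4, Cnn2 and Tubb2b did not; no called member changed sign. Of the 20 genes called in the other lists, 9 kept their call in all 17. Counts of calls over the whole table moved to 334 higher and 331 lower with no minimum mean, to 369 and 361 with the replicate number as a block, and to 1087 and 1058 with voom on the recovered reads; without 1 library they ranged from 302 to 441 and from 320 to 438. The members called higher, 2, were 1 with a pseudocount of 5, no minimum mean, median-of-ratios scaling, no trend, library weights or the replicate block, 4 with voom, and 1 to 2 without 1 library. The members called lower, 8, were 5 with no minimum mean or no trend, 6 with the block, and 5 to 6 without 1 library. The other lists, 8 higher and 12 lower, gave 5 higher with no trend or the block, 6 lower with no minimum mean or no trend, 5 lower with the block, and 5 to 6 higher and 4 to 9 lower without 1 library. The cause was not tested. The deviations of same-numbered libraries correlated at 0.00586, -0.0338 and 0.0104, and 1 of 6 libraries correlated best with its own number, so the numbers were not taken as pairs. Leaving out 1 library, chosen for the ratios after the data were seen, gave log2 differences of 0.08 to 0.23 for Tubb2b to Tubb2a, against 0.15 with all libraries, and of 0.025 to 0.104 for Actb to Actg1, against 0.058. Among the called members, Stmn1 and Tubb2b rest on the fewest reads, 374 to 539 and 624 to 835 per library. The part of depth in their calls was not tested.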
